A study of Bos taurus with 4 samples.

Results

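The genes described here are 10 genes of intestinal tuft cells: *POU2F3*, *GFI1B*, *AVIL*, *DCLK1*, *SH2D6*, *GNAT3*, *TRPM5*, *PTGS1*, *HPGDS* and *IL25*. They were chosen by name, as genes of the tuft cell lineage and of taste signalling, and each matched 1 of the 29792 rows of the read count files. Reads were counted in 4 libraries of Hanwoo cattle: a small intestine, a muscle, and organoids of the intestine after 5 passages (P5) and after 10 (P10). Cattle were more than 24 months old, and the organoids were grown in Matrigel with IntestiCult medium from crypts of the jejunum. All 4 libraries are labelled Hanwoo cow, no treatment or genotype difference is stated, and the position of the muscle is not given. The labels do not tie a library to an animal, and with 1 library per condition the differences could not be checked in replicates and carry no p-value.

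Tuft cells are rare chemosensory cells of the gut epithelium. Their fate depends on the transcription factor POU2F3, and they carry a taste-type signalling chain in which a receptor acts through the G protein gustducin (with the subunit GNAT3), phospholipase C and calcium release on the cation channel TRPM5. When they sense helminths or protists, they release interleukin 25 and eicosanoids, which activate innate lymphoid cells, and the interleukin 13 of those cells acts back on crypt cells so that more tuft and goblet cells are made. Organoids hold epithelium without the lymphoid, stromal and nerve cells that surround it in the gut.

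Sequencing was of 3′ ends of polyadenylated RNA (QuantSeq), and the deposited values are whole-number reads per gene. The library totals lay between 12917720 reads in muscle and 17776273 in intestine. Levels are given as reads and as CPM (reads per 1000000 reads of the library) with 95% exact Poisson intervals, which leave out all error but that of counting, as PCR may copy 1 molecule many times. A gene with 3 reads or fewer was taken as not detected, a floor of 0.169 CPM in intestine and P10 organoids, 0.221 CPM in P5 organoids and 0.232 CPM in muscle. The markers of epithelium (*EPCAM*, *CDH1*, *CLDN7*, *KRT8*, *ELF3*, *CDX2*) summed to 1133 CPM (intestine), 5425 (P5), 4850 (P10) and 15.5 (muscle), and all 5 skeletal muscle markers were detected in muscle. The organoids therefore had 4.79 (P5) and 4.28 times (P10) the epithelial CPM of intestine, with *KRT8* giving between 69.0% and 84.2% of the epithelial reads of these 3 libraries. Without *KRT8* these factors were 3.57 and 2.18. *EPCAM* then gave most of the reads left: 5725 of 6248 (intestine), 14156 of 17083 (P5) and 10244 of 13610 (P10). The scale without *KRT8* is thus led by *EPCAM*. In bulk RNA, fewer cells of a type and less RNA per cell cannot be told apart.

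Of the 10 genes, intestine held 8 above the detection limit, P5 organoids 6, P10 organoids 5 and muscle 5. Over all rows, 60.3%, 56.5%, 53.5% and 52.3% were detected in the same libraries. *PTGS1*, *DCLK1* and *HPGDS* were detected in all 4 libraries, while *TRPM5* and *IL25* were detected in none. Together the 10 genes had 49.5 CPM in intestine (95% interval 46.3 to 52.9) and 19.8 in muscle (17.5 to 22.4). Organoids had 8.38 CPM at P5 (6.91 to 10.1) and 12.6 at P10 (10.98 to 14.3). The sum was led by different genes in different libraries: without *SH2D6* the P10 organoids lay below the P5 organoids, by a log2 ratio of -0.88 in place of 0.59.

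**Figure D1:**
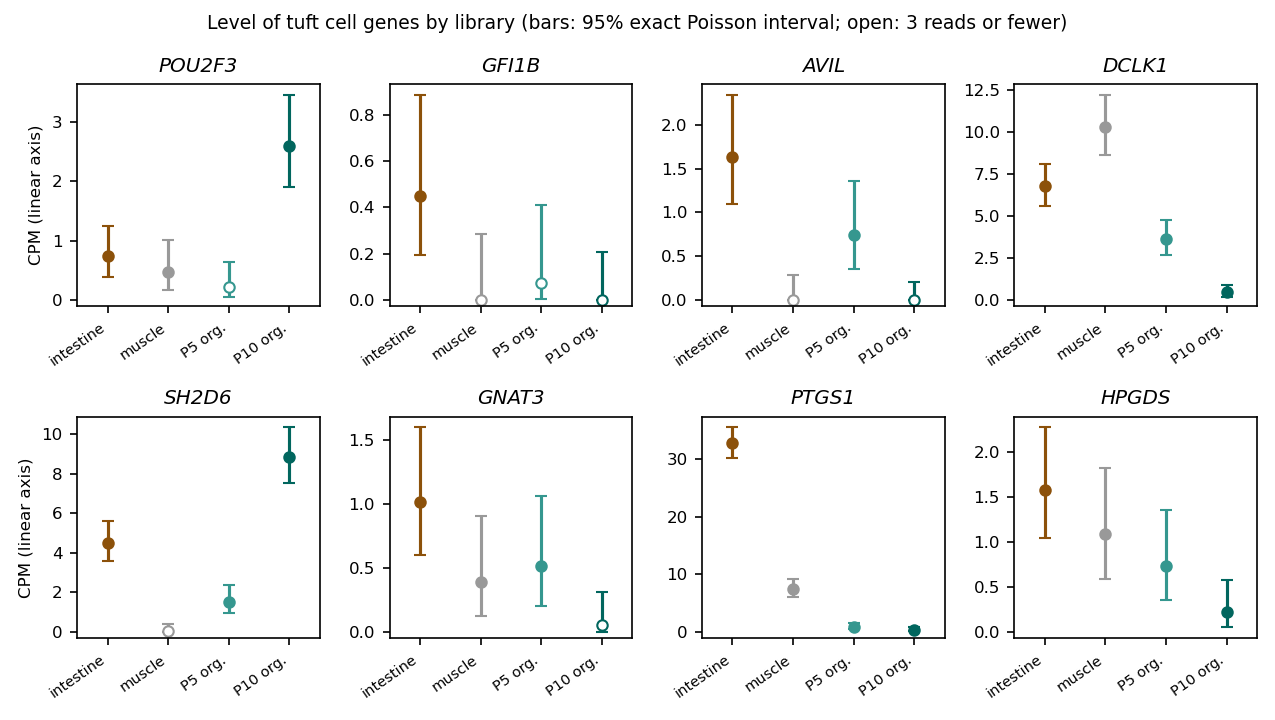
Level of the 8 tuft cell genes detected in any library, in CPM on a linear axis with its own range for each gene, in the 4 libraries. Points are single libraries, bars are 95% exact Poisson intervals and open points have 3 reads or fewer. *POU2F3* (2.59 CPM) and *SH2D6* (8.85 CPM) were highest in P10 organoids per library total, though not per read of 6 epithelial genes, whereas *AVIL* had no read there.

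*POU2F3* encodes the transcription factor that commits cells to the tuft lineage, and it is also expressed in squamous epithelium. It had 46 reads in P10 organoids, 13 in intestine, 6 in muscle and 3 in P5 organoids, or 2.59, 0.731, 0.464 and 0.221 CPM. P10 organoids were the only library whose interval (1.90 to 3.46 CPM) lay apart from the others, and intestine, muscle and P5 organoids could not be ordered beyond counting error. The level in P10 organoids was 11.8-fold that in P5 organoids (95% counting interval 3.78 to 59.1) and 3.55-fold that in intestine (1.88 to 7.16). Of 16994 rows compared in both ways, 10.8% were called higher in P10 organoids than in P5 organoids and intestine. On the scale of epithelial reads, the difference from intestine turned its direction: *POU2F3* had 0.535 reads per 1000 epithelial reads in P10 organoids and 0.645 in intestine, a ratio of 0.829 whose interval (0.440 to 1.67) includes equal levels. This turn depended on which epithelial genes set the scale. With the other 5, led by *EPCAM*, P10 organoids had 3.38 and intestine 2.08 reads per 1000, a ratio of 1.62 (0.863 to 3.28). P5 organoids had 0.0407 on this scale, so P10 organoids stayed higher than P5 organoids (13.2-fold, 4.23 to 66.1), as they did without *KRT8* (19.2-fold, 6.19 to 96.7).

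*GFI1B* encodes a zinc finger repressor that is found in tuft cells and in the megakaryocyte and erythroid lineages. It had 8 reads in intestine, 1 in P5 organoids and none in P10 organoids or muscle. Intestine was the 1 library in which it was detected, at 0.450 CPM (0.194 to 0.887). The difference of intestine and P5 organoids was not detectable at this depth (ratio 6.12, interval 0.821 to 272). P10 organoids, with no reads set to 3, were 2.66-fold lower than intestine (lower 95% counting limit 1.70-fold). Of the megakaryocyte and platelet markers, *PF4* had 30 reads in intestine and none in the other libraries, and *GP1BA* and *PPBP* had no reads in any. *GP9* had 568 reads (intestine), 23 (muscle), 334 (P5) and 622 (P10), and *ITGA2B* 62, 79, 18 and 28. The part of megakaryocyte or platelet RNA in the *GFI1B* reads of intestine was not tested.

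*AVIL* encodes advillin, an actin-bundling protein of the tuft cell microvilli that is also made in sensory neurons. Its reads were 29 (intestine), 10 (P5), 0 (P10) and 0 (muscle), so it was detected in intestine and P5 organoids and not in the others. In CPM it was 1.63 (1.09 to 2.34) in intestine and 0.735 (0.353 to 1.35) in P5 organoids, 2.22-fold lower (1.05 to 5.10). With the 0 reads of P10 organoids set to 3, they were 9.64-fold lower than intestine and 4.35-fold lower than P5 organoids. The lower 95% counting limits of these differences were 7.35-fold and 2.92-fold. Among all rows detected in P5 organoids, 11% were not detected in P10 organoids. Rows with 4 to 29 reads in intestine include *GFI1B*, *POU2F3*, *GNAT3*, *HPGDS* and, at the upper end, *AVIL*. Among these rows, 57.2% were not detected in muscle, 41.1% not in P5 and 49.7% not in P10 organoids. The shares are for the whole range, and none was counted for rows close to the 29 reads of *AVIL*.

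*DCLK1* encodes a doublecortin-like kinase used as a tuft cell marker in mouse and also expressed in neurons and stromal cells. Muscle had 133 reads of it, intestine 120, P5 organoids 49 and P10 organoids 8, or 10.3, 6.75, 3.60 and 0.451 CPM, and each step in this order was beyond counting error. P5 organoids were 1.87-fold lower than intestine (1.33 to 2.67), short of 2-fold, and P10 organoids were 14.96-fold lower than intestine (7.35 to 35.4) and 7.99-fold lower than P5 organoids (3.75 to 19.5). Muscle had 1.53-fold more than intestine per library total (1.18 to 1.97). *DCLK1* thus had no higher level in gut than in muscle, and it overlaps a tRNA gene in the RefSeq annotation. The fibroblast markers (*PDGFRA*, *COL1A1*, *COL3A1*, *DCN*, *LUM*) summed to 957 CPM (intestine), 1183 (muscle), 3.46 (P5) and 0.282 (P10), and the neuron and glia markers to 24.1, 87.0, 8.24 and 4.74 CPM. All 5 fibroblast markers were detected in both tissues, 2 in P5 organoids and 1 in P10 organoids, with *COL3A1*, *DCN* and *LUM* at 0 in both organoid libraries. Their part in the *DCLK1* differences was not tested.

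*SH2D6* encodes an SH2 domain adaptor that marks tuft cells in single-cell surveys of the gut. P10 organoids had 157 reads of it, intestine 80, P5 organoids 21 and muscle 1, or 8.85, 4.50, 1.54 and 0.0774 CPM, and every step of this order was beyond counting error. The intestine level was 58.1-fold that of muscle (10.1 to 2325), resting on 1 muscle read. P5 organoids lay 2.91-fold below intestine (1.78 to 4.96) and P10 organoids 5.73-fold above P5 organoids (3.62 to 9.52). Per library total, P10 organoids were 1.97-fold above intestine (1.49 to 2.61), just short of 2-fold. Per 1000 epithelial reads, *SH2D6* had 3.97 reads in intestine, 0.285 in P5 organoids and 1.83 in P10 organoids, so that P10 organoids lay 2.18-fold below intestine (1.64 to 2.87) and the direction turned. Without *KRT8* in the scale P10 organoids and intestine had 11.5 and 12.8 reads per 1000, and the interval of their ratio (0.684 to 1.19) included equal levels.

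*GNAT3* encodes the alpha subunit of gustducin, the G protein of sweet, bitter and umami taste. It had 18 reads in intestine, 7 in P5 organoids, 5 in muscle and 1 in P10 organoids, or 1.01, 0.515, 0.387 and 0.0564 CPM. No neighbours in this order differed beyond counting error, although the ends of it did: P10 organoids were 18.0-fold lower than intestine (2.83 to 748) and 9.13-fold lower than P5 organoids (1.17 to 411), both resting on 1 read. *TRPM5*, the cation channel at the end of the taste chain, had no reads in any library, which puts it under the floor of 3 reads, with upper 95% Poisson limits of 0.208 CPM in intestine and P10 organoids, 0.271 in P5 organoids and 0.286 in muscle.

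*PTGS1* encodes cyclooxygenase 1, which makes prostaglandin H in tuft cells and in platelets, endothelium, mast cells and stroma. It had 583 reads (intestine), 97 (muscle), 13 (P5) and 7 (P10), or 32.8, 7.51, 0.956 and 0.395 CPM. Both organoid libraries were far below both tissues and could not be told apart from each other (ratio of P5 to P10 organoids 2.42, interval 0.898 to 7.17). Against intestine, P5 organoids were 34.3-fold lower (19.9 to 64.8) and P10 organoids 83.1-fold lower (40.1 to 208), and against muscle they were 7.86-fold (4.38 to 15.3) and 19.0-fold (8.89 to 48.6) lower. The levels of other cell types that make *PTGS1* were measured by their markers. Mast cell markers (*KIT*, *MS4A2*, *CPA3*, *HDC*, *TPSB2*) summed to 58.0 CPM (intestine), 7.35 (muscle), 0.956 (P5) and 0.451 (P10). *MS4A2* had no reads in either organoid library, and *KIT* and *CPA3* had 5 and 8 at P5 and none at P10. *HDC* had 75 reads (intestine), 13 (muscle), 0 (P5) and 8 (P10), and *TPSB2* had 11 in muscle and none in intestine or organoids. Macrophage markers summed to 392, 41.0, 2.35 and 1.18 CPM in the same order, with *CSF1R* and *C1QA* at 0 in both organoid libraries. Smooth muscle markers summed to 1955, 2219, 7.43 and 6.77 CPM, but *DES* alone gave 2199 CPM of the sum in muscle. The other markers of that list, *MYH11*, *ACTG2* and *CNN1*, had 531, 484 and 577 CPM in intestine. In muscle they had 11.8, 1.94 and 6.35 CPM. Megakaryocyte and platelet markers summed to 37.1, 7.90, 25.9 and 36.7 CPM, with *GP9* giving most of these reads in intestine and in both organoid libraries. *PF4* had 1.69 CPM in intestine and no reads in organoids, and *ITGA2B* had 3.49 CPM in intestine, 1.32 at P5 and 1.58 at P10. The part of these cells in the *PTGS1* difference was not tested.

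*HPGDS* encodes the haematopoietic prostaglandin D synthase, which acts after cyclooxygenase in tuft cells, mast cells and some T cells. Its reads were 28 (intestine), 14 (muscle), 10 (P5) and 4 (P10), or 1.58, 1.08, 0.735 and 0.226 CPM. Neighbours in this order did not differ beyond counting error. P5 organoids were 2.14-fold lower than intestine with an interval (1.01 to 4.94) that only just left equal levels, and P10 organoids were 6.98-fold lower (2.44 to 27.4). The mast cell and macrophage levels are those given for *PTGS1*, and the part of these cells in the *HPGDS* differences was not tested.

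*IL25* encodes the cytokine by which tuft cells alert innate lymphoid cells. It had 1 read in intestine and none elsewhere, so no level or difference can be given.

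**Figure D2:**
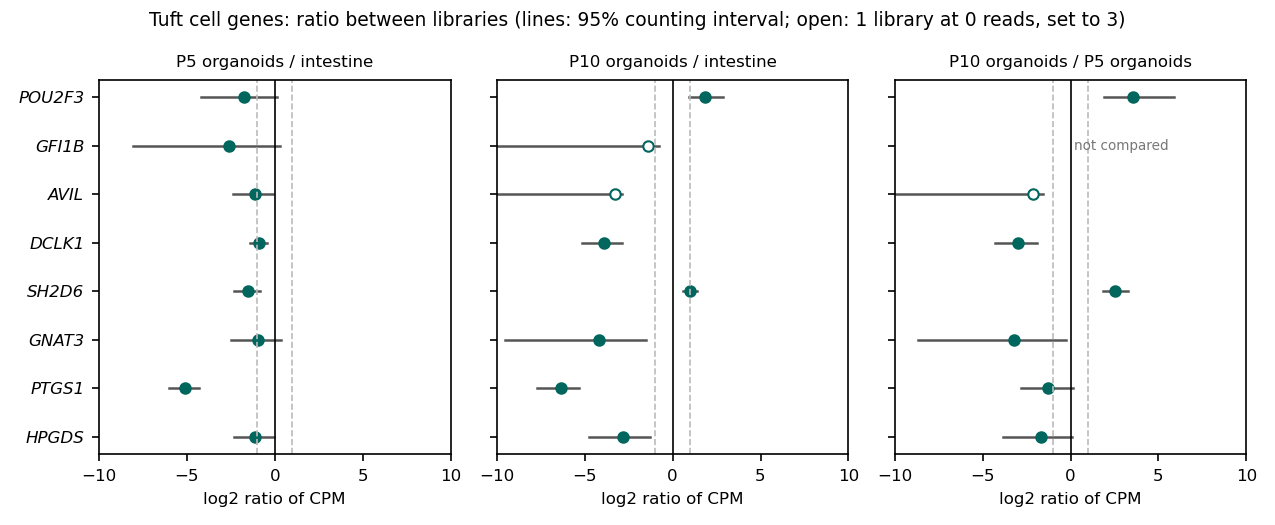
Log2 ratios of CPM between P5 organoids and intestine, P10 organoids and intestine, and P10 and P5 organoids for the same 8 genes. Points are ratios of single libraries and lines are 95% exact counting intervals. Open points have 0 reads in the lower library (set to 3, a bound that leaves out counting error). Solid vertical lines mark equal levels and dashed lines 2-fold. All 8 points lie left of equal in P5 organoids against intestine, whereas *POU2F3* and *SH2D6* lie right of it in both panels of P10 organoids, though per read of 6 epithelial genes both lay below intestine at P10 (*POU2F3* within counting error) and without *KRT8* neither differed from it beyond counting error.

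To compare the libraries, a gene was called higher or lower where its CPM differed at least 2-fold and the 95% counting interval of the ratio left out equal levels. Genes with 3 reads or fewer in both libraries were not compared, and for the call a count of 3 or fewer was set to 3. Ratios printed for genes with 1 to 3 reads are those of the reads themselves. Of the 8 tuft cell genes compared between P5 organoids and intestine, none was higher and 4 were lower: *AVIL*, *HPGDS*, *SH2D6* and *PTGS1*. Over all 19341 rows compared in this way, 21.5% were higher and 22.8% lower. The median log2 ratio was -1.12 for the 8 genes and 0.11 for all rows. With quantile normalisation, which the study's methods name, 2 of the 8 were lower past 2-fold, *PTGS1* and *GFI1B*, and *AVIL* (log2 ratio -0.30), *HPGDS* (-0.25) and *SH2D6* (-0.83) were not.

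Between P10 organoids and intestine, 1 of 8 genes was higher (*POU2F3*) and 6 were lower (*AVIL*, *DCLK1*, *GFI1B*, *GNAT3*, *HPGDS*, *PTGS1*). Of all 18991 rows compared, 25.5% were higher and 27.8% lower. The median log2 ratio was -2.69 for the tuft cell genes and 0.081 for all rows. The gene that was higher was not so per epithelial read, where 0 of 8 intervals lay above equal and 7 lay below it, beside 6.29% and 83.4% of all rows. Without *KRT8* in that scale 6 of 8 lay below and none above, beside 68.4% and 17% of all rows.

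Between P10 and P5 organoids, 2 of the 7 genes compared were higher (*POU2F3*, *SH2D6*), 3 were lower (*AVIL*, *DCLK1*, *GNAT3*), and *HPGDS* and *PTGS1* were neither. Over 17798 rows, 16.3% were higher and 19.2% lower, and the median log2 ratio was 0.053, against -1.61 for the tuft cell genes. *POU2F3*, *SH2D6* and *DCLK1* kept these calls with TMM, upper-quartile, RN18S1-free, epithelial and quantile scaling, the last judged by fold alone. *GNAT3* lost its call per epithelial reads without *KRT8*. With a floor of 9 reads, *DCLK1* was the 1 gene left lower, since the calls of *AVIL* and *GNAT3* rested on 10 and 7 reads in P5 organoids. Library, culture and passage cannot be told apart with 1 library per passage.

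Between intestine and muscle, 3 of 8 genes were higher in intestine (*AVIL*, *SH2D6*, *PTGS1*) and none was lower, where 52.6% of 18950 rows were higher and 11.9% lower. *DCLK1* was lower in intestine with TMM, upper-quartile or quantile scaling, *POU2F3* and *HPGDS* were so with quantile scaling, and *PTGS1* fell short of 2-fold with upper-quartile or quantile scaling. The median log2 ratio of the 8 genes was 1.17, close to the 1.14 of all rows, so the group did not stand out from the shift of the whole table. That shift depended on the scaling: the share of higher rows among those called was 81.6% with library totals, 56.9% with edgeR's TMM factors and 51.5% with upper-quartile factors, and *RN18S1*, a ribosomal RNA gene, took 23.6% of the muscle reads and between 0.264% and 4.81% of the others. Against muscle, P5 organoids had 2 of 7 genes higher (*AVIL*, *SH2D6*) and 2 lower (*DCLK1*, *PTGS1*), beside 52.3% and 16.5% of 18633 rows. With TMM or upper-quartile factors *AVIL* lost its call (log2 ratio 0.48 and 0.34), and *POU2F3* and *HPGDS* were lower as well. P10 organoids had 2 of 6 higher (*POU2F3*, *SH2D6*) and 3 lower (*DCLK1*, *HPGDS*, *PTGS1*), beside 53.5% and 19.5% of 18083 rows. The shares of higher rows among those called, 76.0% for P5 and 73.3% for P10 organoids against muscle, fell to 49.1% and 48.8% with TMM factors. *SH2D6* was higher and *PTGS1* and *DCLK1* lower in P10 organoids than in muscle with each of these scalings, whereas *POU2F3* was not called with TMM or upper-quartile factors. *GNAT3*, not called with library totals, was lower in P10 organoids than in muscle with TMM, upper-quartile, RN18S1-free and quantile scaling. It had 1 read in P10 organoids and 5 in muscle.

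**Figure D3:**
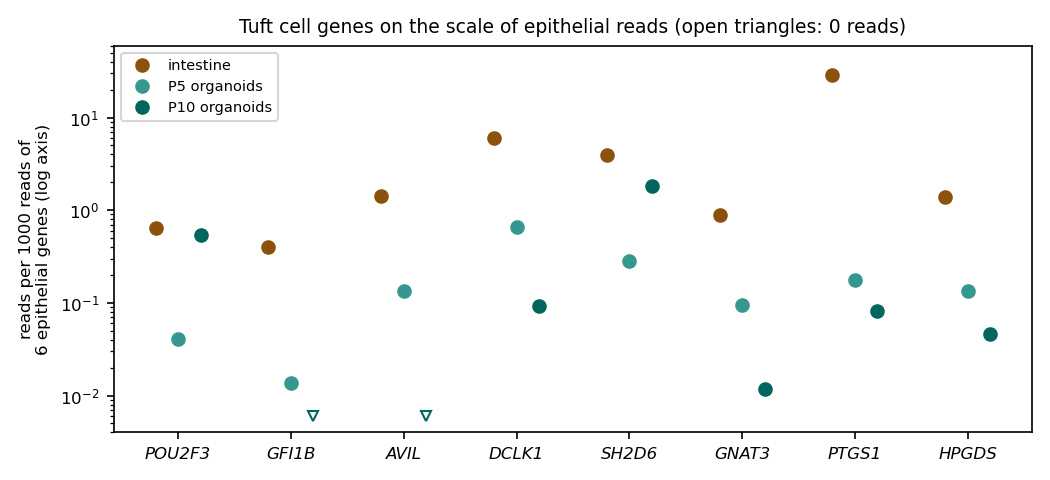
Reads of the 8 tuft cell genes per 1000 reads of 6 epithelial genes, on a log axis, in intestine, P5 organoids and P10 organoids (muscle is left out, with 200 epithelial reads). Points are single libraries and open triangles stand for 0 reads at an arbitrary height. Intestine is the highest point for each gene, and P10 organoids come near it for *POU2F3* alone, on a scale led by *KRT8*.

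Since whole intestine holds many other cells, the genes were also set against epithelial reads. On this scale all 8 genes were lower in P5 organoids than in intestine with intervals that left out equal levels, from 8.97-fold for *DCLK1* (6.38 to 12.8) to 164-fold for *PTGS1* (95.3 to 310). The summed reads of the 10 genes were 43.7 (intestine), 1.55 (P5) and 2.59 (P10) per 1000 epithelial reads. Of all 19341 rows, 84.9% had intervals below equal and 3.35% above it in P5 organoids, so the tuft cell genes shared the direction of most of the table. The median log2 ratio on this scale was -3.38 for the 8 genes and -2.15 for all rows. Without *KRT8* the 8 genes were still below intestine in P5 organoids, beside 81.2% of rows.

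The other genes of these pathways were 40 genes in 4 lists, of which intestine had 34 above the detection limit, muscle 29, P5 organoids 24 and P10 organoids 22. Against intestine, 6 of 35 compared were higher and 17 lower in P5 organoids, and 4 of 34 were higher and 18 lower in P10 organoids, to be read beside the 21.5%, 22.8%, 25.5% and 27.8% of all rows. Between P10 and P5 organoids, 3 of 27 were higher and 8 lower, beside 16.3% and 19.2% of all rows. Per read of the 6 epithelial genes 1 of 35 pathway genes lay above intestine at P5 (*ITPR3*) and 3 of 34 at P10 (*ITPR3*, *GNG13*, *COLCA2*), and 30 lay below at each passage. Of all rows, 3.35% lay above and 84.9% below at P5, and 6.29% and 83.4% at P10. Without *KRT8* in the scale 2 of 35 pathway genes lay above and 29 below at P5, beside 5.56% and 81.2% of all rows. At P10 they were 4 of 34 above and 28 below, beside 17% and 68.4%.

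**Figure D4:**
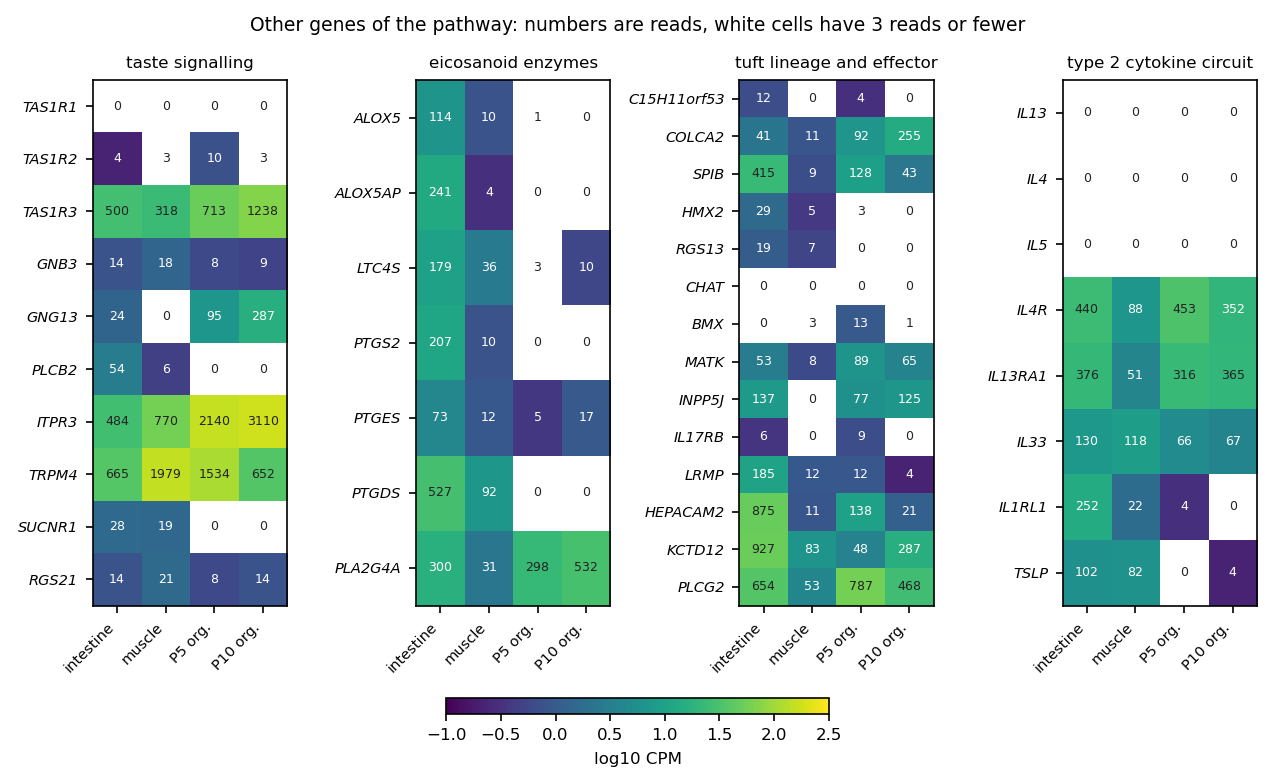
Reads (numbers) and log10 CPM (colours) of other genes of taste signalling, eicosanoid synthesis, the tuft lineage and the type 2 cytokine circuit in the 4 libraries. White cells have 3 reads or fewer. The genes *ITPR3*, *GNG13* and *COLCA2* have more reads in P10 organoids (3110, 287 and 255) than in intestine (484, 24 and 41), while 4 of 7 eicosanoid genes are white in both organoid libraries.

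In the taste signalling list, 3 of 9 genes compared were higher than intestine and 2 lower at each passage (*ITPR3*, *GNG13* and *TRPM4* higher at P5, *ITPR3*, *GNG13* and *TAS1R3* at P10, *PLCB2* and *SUCNR1* lower at both). Of all rows, 21.5% were higher and 22.8% lower at P5, and 25.5% and 27.8% at P10. *ITPR3*, the calcium release channel of the chain, had 484 reads (intestine), 770 (muscle), 2140 (P5) and 3110 (P10). *GNG13*, the gamma subunit that partners gustducin, had 24, 0, 95 and 287 reads in the same order, and was 5.17-fold higher than intestine in P5 organoids (3.28 to 8.47) and 12.0-fold in P10 organoids (7.90 to 19.0). In P10 organoids *GNG13* was 2.32-fold above P5 organoids (1.83 to 2.95). *PLCB2*, the phospholipase of the chain, had 54 reads in intestine, 6 in muscle and none in either organoid library, and *SUCNR1*, a succinate receptor of tuft cells, had 28, 19, 0 and 0. *TAS1R3*, a shared subunit of the sweet and umami receptors, had 500, 318, 713 and 1238 reads. Per library total, P10 organoids were 2.48-fold above intestine (2.24 to 2.76), turning to 1.72-fold below it per read of 6 epithelial genes. Without *KRT8* in that scale *TAS1R3* in P10 organoids lay 1.14-fold above intestine (1.02 to 1.26). Its partners *TAS1R1* and *TAS1R2* had no reads in any library and between 3 and 10 reads. *TRPM4*, a channel related to TRPM5 and expressed in many tissues and 1.59-fold below intestine at P5 per read of 6 epithelial genes, had 665 reads (intestine), 1979 (muscle), 1534 (P5) and 652 (P10). The G protein subunit *GNB3* had between 8 and 18 reads in each library, and *RGS21*, a regulator of G protein signalling in taste cells, between 8 and 21.

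The eicosanoid enzymes behind leukotrienes and prostaglandins were lower in organoids than in intestine for 6 of 7 genes at both passages, beside 22.8% of all rows at P5 and 27.8% at P10. *PTGDS*, the lipocalin-type prostaglandin D synthase, had 527 reads in intestine, 92 in muscle and none in organoids. *ALOX5AP*, which presents substrate to 5-lipoxygenase, had 241 and 4 reads in the tissues and none in organoids, and *PTGS2*, the inducible cyclooxygenase, had 207 and 10 and none. *ALOX5* itself had 114 and 10 reads in the tissues, 1 at P5 and 0 at P10. The exception was *PLA2G4A*, the phospholipase that frees arachidonic acid, with 300 reads (intestine), 31 (muscle), 298 (P5) and 532 (P10). Per read of 6 epithelial genes *PLA2G4A* lay below intestine at P5 (ratio 0.271, 0.230 to 0.319) and P10 (0.415, 0.360 to 0.480). Without *KRT8* it still did (0.363, 0.308 to 0.428, and 0.814, 0.705 to 0.941). *LTC4S*, the leukotriene C synthase, had 179, 36, 3 and 10 reads, and *PTGES*, a prostaglandin E synthase, 73, 12, 5 and 17. These enzymes are also made by leukocytes, and the macrophage and mast cell levels are those given for *PTGS1*. The T and B cell markers (*CD3E*, *CD2*, *CD79A*, *MS4A1*, *POU2AF1*) summed to 90.3 CPM (intestine), 4.26 (muscle), 0.221 (P5) and 2.59 (P10), and 35 of the P10 reads were of *CD79A*. The part of leukocytes in the eicosanoid genes was not tested.

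In the tuft lineage and effector list, 3 of 14 genes were higher and 7 lower in P5 organoids than in intestine, beside 21.5% and 22.8% of all rows. In P10 organoids 1 of 13 was higher and 8 lower, beside 25.5% and 27.8% of all rows. The gene higher in both was *COLCA2*, an older symbol of POU2AF3, a coactivator of POU2F3, with 41 reads (intestine), 11 (muscle), 92 (P5) and 255 (P10). It was 2.93-fold above intestine in P5 organoids (2.01 to 4.35, turning to 1.63-fold below it per read of 6 epithelial genes) and 6.24-fold in P10 organoids (4.47 to 8.90), and 2.13-fold higher in P10 than in P5 organoids (1.67 to 2.73). Without *KRT8* in the epithelial scale the ratio of *COLCA2* in P5 organoids to intestine was 0.821, with an interval (0.562 to 1.22) that included equal levels. The other POU2F3 coactivator, POU2AF2, carried in the files under the older symbol *C15H11orf53*, had 12 reads (intestine), 0 (muscle), 4 (P5) and 0 (P10). *SPIB*, an ETS factor of tuft, M and B cells, went from 415 reads in intestine to 128 and 43 in P5 and P10 organoids, with 9 in muscle. *HMX2*, a homeobox gene of tuft cells, had 29, 5, 3 and 0 reads in intestine, muscle, P5 and P10 organoids, and *RGS13* 19, 7, 0 and 0.

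Of the effectors, *HEPACAM2*, a membrane protein of tuft and goblet cells, had 875 reads (intestine), 11 (muscle), 138 (P5) and 21 (P10). *KCTD12* had 927, 83, 48 and 287 reads, and was 4.59-fold higher in P10 than in P5 organoids (3.37 to 6.36). *LRMP*, an older symbol of IRAG2, had 185, 12, 12 and 4 reads. These genes were all below their intestine level at both passages. *INPP5J*, a phosphoinositide phosphatase, had 137, 0, 77 and 125 reads, *PLCG2*, a phospholipase shared with immune cells, 654, 53, 787 and 468, and the kinase *MATK* 53, 8, 89 and 65. *MATK* was called higher in P5 organoids than in intestine per library total. Per epithelial read it lay below intestine there, with *KRT8* in the scale (ratio 0.458, 0.323 to 0.657) and without it (0.614, 0.432 to 0.880). *BMX*, a further kinase, had 0, 3, 13 and 1 reads, and *IL17RB*, a subunit of the interleukin 25 receptor, 6, 0, 9 and 0, so both were detected in P5 but not in P10 organoids. *CHAT*, which makes acetylcholine, had no reads in any library.

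The type 2 cytokines *IL13*, *IL4* and *IL5* had no reads in any library, intestine included. The receptor chains through which interleukins 4 and 13 act on the epithelium were detected in all 4. *IL4R* had 440 reads (intestine), 88 (muscle), 453 (P5) and 352 (P10), and *IL13RA1* had 376, 51, 316 and 365. Neither gene passed 2-fold between an organoid library and intestine per library total. Per read of 6 epithelial genes, *IL4R* lay 3.56-fold (P5) and 5.34-fold (P10) below intestine, and *IL13RA1* 4.36-fold and 4.40-fold. Without *KRT8* these values were 2.66-fold and 2.72-fold for *IL4R*, and 3.25-fold and 2.24-fold for *IL13RA1*. *IL33*, an alarmin, had 130, 118, 66 and 67 reads. Its receptor *IL1RL1* had 252, 22, 4 and 0, and the alarmin *TSLP* 102, 82, 0 and 4, and these last genes were lower than intestine at both passages.

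**Figure D5:**
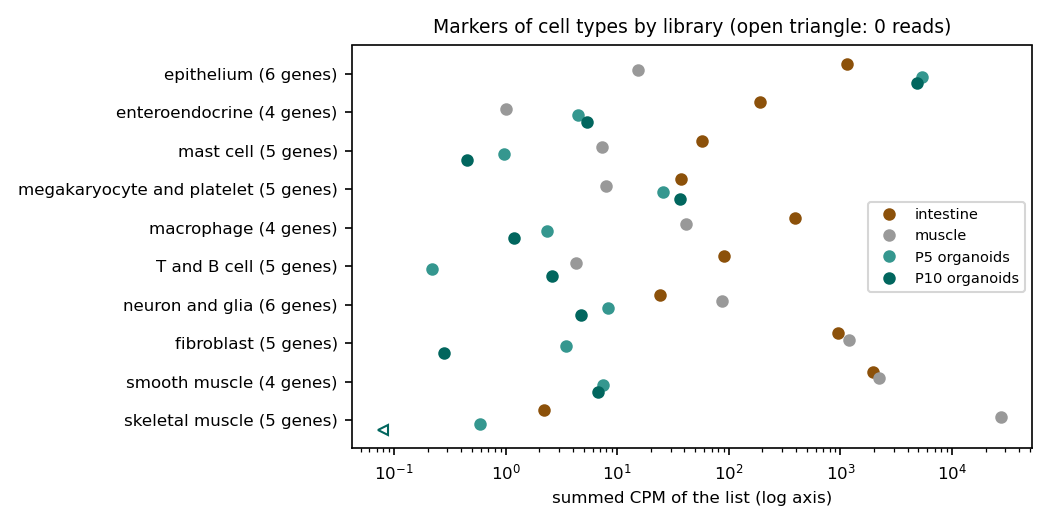
Summed CPM of marker lists of 10 cell types in the 4 libraries, on a log axis. Each point is 1 library and the open triangle marks 0 reads. Both organoid libraries lie above intestine for epithelium alone, with 5425 and 4850 CPM against 1133.

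The rows whose pattern over the 4 libraries lay nearest to a tuft cell gene were sought for the 6 genes with at least 20 reads in a library, by Euclidean distance of log2(CPM + 0.5) after centring, among 17234 rows. For *POU2F3* they were *ZNF580* (distance 0.099), *CELSR1* (0.16) and *MAPK8IP1* (0.22). For *SH2D6* they were *LOC101902112* (0.32), *LOC112447359* (0.35) and *LOC616094* (0.37). *DCLK1* lay nearest to *CD109* (0.24), *ESR1* (0.25) and *DST* (0.30), *PTGS1* to *SLCO2B1* (0.26), *TMEFF2* (0.28) and *FMNL3* (0.30), *HPGDS* to *SDK1* (0.091), *THRA* (0.13) and *LOC100847509* (0.14), and *AVIL* to *BRSK2* (0.064), *LOC107131643* (0.072) and *LOC112444839* (0.089). No tuft cell gene was among the 3 nearest rows of these 6.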

How the data were processed

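Libraries were made with the QuantSeq 3′ kit. The authors aligned reads with Bowtie2 (against either an assembly or a set of transcripts) and used Bedtools to count alignments per gene, multiple ones included. The deposited values are these counts, without normalisation, and reads with several alignments make counts of related genes uncertain. The genome build is not given in the sources used here, so no coordinates are printed. All 10 symbols matched the RefSeq table of ARS-UCD2.0, in which *TRPM5*, *DCLK1*, *GFI1B* and *PTGS1* each overlap another gene. Use of strand in counting is not stated, so their counts are uncertain. The older symbols *COLCA2*, *C15H11orf53* and *LRMP* are not paired with current ones in that table and were matched by hand.

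The study's methods name quantile normalisation with edgeR. That step gives a single read a different value in each library, so library totals (CPM) were used and quantile normalisation was an alternative. Ratios have exact Clopper-Pearson intervals at 95%, conditional on the sum of both counts, which cover counting error only. The settings tried were quantile, TMM and upper-quartile normalisation, totals without *RN18S1*, epithelial reads (with and, added after seeing the data, without *KRT8*), floors of 0 and 9 reads, thinning to 12917720 reads, rows summed by symbol, 4-fold, and pseudocounts of 0.1 and 1 CPM. The genes named were all 10 tuft cell genes, the pathway genes detected in an organoid library with up to 3 others per list with the most reads, undetected markers, and the 3 nearest rows of each tuft cell gene with at least 20 reads. The tuft cell genes and all lists were chosen with earlier results of these data known. Genes named beyond this rule (*ALOX5* and zero-read genes) were chosen after their values were seen. The values of 1 gene of the tuft lineage and effector list are not reported here, though the counts over that list include it. The mast cell marker *CMA1* was not matched. Intervals and calls were tested on simulated data. Scripts ran in R 4.3.3 with limma 3.58.1 and edgeR 4.0.16, and in Python 3.11.15 with scipy 1.17.1, pandas 2.3.3 and numpy 2.4.6, and figures were drawn with matplotlib 3.10.9.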

Additional observations from a re-analysis of the deposited data

Results flagged for a closer look

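*POU2F3* and *SH2D6* lay below intestine in P5 organoids and above it in P10 organoids, per library total, which singled them out, though at P10 this position changed with the scale: per read of 6 epithelial genes both lay below intestine (*POU2F3* within counting error), and without *KRT8* in that scale neither differed from intestine beyond counting error. The log2 ratio of P10 over P5 organoids was 3.56 for *POU2F3* and 2.52 for *SH2D6*. The difference between the passages was not tested, since each passage has 1 library, and both comparisons share the intestine library. The position of P5 organoids below intestine was within counting error for *POU2F3* (3 and 13 reads) per library total, though called with TMM, upper-quartile or epithelial scaling, and beyond it for *SH2D6* (21 and 80 reads).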

How the results depend on the processing

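No paired analysis was possible because each condition has 1 library. Quantile normalisation was judged by fold alone, without a counting interval. Depth limits the genes with few reads: with a floor of 9 reads, 3 tuft cell genes in place of 5 were detected in muscle and 2 in place of 5 in P10 organoids.

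For intestine against muscle, tuft cell genes called lower went from 0 to 1 (TMM), 1 (upper-quartile) and 3 (quantile), and pathway genes called lower from 3 to 6, 7 and 8. The median log2 ratio went from 1.17 to -0.0050 with upper-quartile factors. The summed log2 ratio went from 1.32 to 0.44 without *PTGS1* and to 2.17 without *DCLK1*.

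For P5 organoids against muscle, 2 genes called higher became 1 with TMM, upper-quartile factors, the floor of 9 and 4-fold. Those called lower went from 2 to 4 with TMM, upper-quartile and quantile scaling and to 1 at 4-fold. Pathway genes called higher went from 14 to 9 (upper-quartile), and those lower from 11 to 17 (TMM), 18 (upper-quartile), 18 (quantile) and 7 (floor of 9). The summed log2 ratio went from -1.24 to -0.73 without *PTGS1*.

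For P10 organoids against muscle, genes called higher went from 2 to 1 with TMM and upper-quartile factors. Pathway genes called higher went from 12 to 7 (TMM), 6 (upper-quartile) and 7 (quantile), and those lower from 15 to 9 (floor of 9). The median went from -1.73 to 0 on the scales of log2(CPM + 1) and log2(CPM + 0.1). The summed log2 ratio went from -0.66 to -0.015 without *PTGS1*, -2.41 without *SH2D6*, 0.35 without *DCLK1* and -0.96 without *POU2F3*.

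For P5 organoids against intestine, genes called lower went from 4 to 8 per epithelial reads (8 without *KRT8* as well), 2 with quantile scaling and 1 at 4-fold. The summed log2 ratio went from -2.56 to -1.17 without *PTGS1*, -3.16 without *DCLK1* and -4.82 per epithelial reads (-4.40 without *KRT8*). For P10 organoids against intestine, genes called higher went from 1 to 0 per epithelial reads (0 without *KRT8* as well), 2 with quantile scaling, 2 after thinning and 0 at 4-fold. The median went from -2.69 to -0.93 on the scale of log2(CPM + 1). The summed log2 ratio went from -1.98 to -0.46 without *PTGS1*, -3.60 without *SH2D6*, -2.29 without *POU2F3* and -4.07 per epithelial reads (-3.10 without *KRT8*). The log2 ratio of *POU2F3* went from 1.83 to -0.27 per epithelial reads and 0.70 without *KRT8*, a setting chosen after seeing the data.

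For P10 against P5 organoids, genes called lower went from 3 to 1 and pathway genes called lower from 8 to 4 with the floor of 9, and pathway genes called higher from 3 to 6 with quantile scaling. The summed log2 ratio went from 0.59 to -0.88 without *SH2D6* and to 1.34 without *DCLK1*, and to 1.296 per epithelial reads without *KRT8*. Leaving out a gene or scaling by epithelial reads changes the sums by construction, and the cause of the other changes was not tested. Of the other values, 48 counts of tuft cell genes called lower and 49 of those called higher stayed within 1.5 times, and 38 medians within their counting range, of which that of P5 organoids against muscle went from -0.56 to 0 with both pseudocounts.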

Other observations

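The make-up of the summed reads of the 10 tuft cell genes differed between the libraries. *PTGS1* held 66.2% of these reads in intestine (95% Clopper-Pearson interval 63.0% to 69.4%) and 3.14% in P10 organoids (1.27% to 6.36%). *DCLK1* held 52.0% in muscle (45.6% to 58.2%) and 43.0% in P5 organoids (33.7% to 52.6%). *SH2D6* held 18.4% in P5 organoids (11.8% to 26.8%) and 70.4% in P10 organoids (63.9% to 76.3%), where *POU2F3* held a further 20.6% (15.5% to 26.5%). These shares rest on 880 (intestine), 256 (muscle), 114 (P5) and 223 (P10) reads.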
